A study of Mus musculus with 12 samples.

Results

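Deletion of the aryl hydrocarbon receptor (AHR) was compared with the wild type over control and cuprizone tissue together, as the genotype term of a model that held treatment as its other term. All 12 of the 12 libraries of the series entered, 6 labelled AHR CKO and 6 labelled WT, chosen by their genotype label alone. The RNA came from mouse corpus callosum, the white matter tract that joins the hemispheres, and each genotype was sampled as Ctrl (control) and as CPZ (cuprizone) with 3 libraries in each of 4 groups. The series design places the deletion in microglia and names no other allele or agent, and nothing else is said to be shared by the groups. The sources used here do not state the Cre driver and the cells in which it acts, the deleted exons, the strain, age and sex of the mice, or the dose and duration of cuprizone. They also do not say that each library was a different mouse, and p-values refer to the spread among libraries, which may be technical.

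AHR is a transcription factor that is held in the cytosol until it binds a ligand such as a tryptophan metabolite or a dioxin. It then enters the nucleus, pairs with ARNT and turns on genes such as Cyp1b1, Tiparp and Ahrr, the last of which encodes its own repressor. Microglia are the resident macrophages of the brain and carry a resting program of receptors that includes Cx3cr1, the receptor for the neuronal chemokine fractalkine. Cuprizone is a copper chelator that kills oligodendrocytes, after which microglia clear the myelin debris and precursors can form new myelin.

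The table gave FPKM, fragments per kilobase of transcript scaled to library size, and differences are given on the scale of log2(FPKM + 1), which understates the change of genes near 1 FPKM. Of 15584 genes, 13759 reached 1 FPKM in at least 3 libraries and were tested with limma. A gene was called at a Benjamini-Hochberg adjusted p under 0.05 over all of them, and means are given with their SD over the 3 libraries of a group. Totals per library ran from 447156 to 519470 FPKM, and libraries of a group correlated across genes with r of 0.972 to 0.993. Myelin transcripts of the labelled tissue were abundant, with Mbp, which encodes myelin basic protein, at 8545 ± 2461 FPKM in WT control, and transcripts of 28 genes of excitatory neurons summed to 4109 to 6405 FPKM in every library. Ddx3y, on the Y chromosome, stood at 13.8 to 22.6 FPKM in all 12 libraries. Of the WT libraries 5 listed no gene at 0, whereas WT cuprizone replicate 2 listed 94 and the AHR CKO libraries 52 to 80. AHR CKO cuprizone replicate 1 stood apart by the steepest length slope described next, and counts without it and WT cuprizone replicate 2 are given as counts without these 2 libraries.

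Transcript length moved with genotype across the whole table. Genes with short transcripts were read higher in AHR CKO and genes with long transcripts lower, in control and in cuprizone tissue alike. Slopes were fitted on log2(FPKM + 1) minus each gene's mean over the 12 libraries. A slope above or below 0 is therefore relative to that mean and does not say how expression itself runs with length. The slope on log2 transcript length was 0.135, 0.1 and 0.148 in the WT control libraries and 0.0297, -0.0191 and -0.0859 in AHR CKO control. It was 0.0782, 0.0293 and 0.0493 in WT cuprizone and -0.238, -0.131 and -0.0956 in AHR CKO cuprizone. Within each treatment every AHR CKO library lay below every WT library. The mean slope differed by -0.18 between the genotypes (exact permutation within treatment, two-sided, p = 0.005, the smallest that 400 arrangements allow). Among 727 genes whose longest transcript was under 1000 nt, the median log2 difference was 0.30, with 46.5% called higher and 1.65% lower. Among 783 genes of 8000 nt and over it was -0.35, with 0.639% called higher and 66.8% lower. The slope of the same centred values on GC content, per percent, was -0.0138 ± 0.0024 in WT control and 0.00535 ± 0.00833 in AHR CKO control. It was -0.00626 ± 0.0081 in WT cuprizone and 0.0147 ± 0.00711 in AHR CKO cuprizone. Whether RNA quality, library preparation or the deletion moved with length was not tested. Most differences below are therefore given with a corrected value. It was taken after a smooth trend on length and on GC content had been removed from each library. Differences printed without a corrected value, among them those of several genes that did not pass, are uncorrected.

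**Figure D1:**
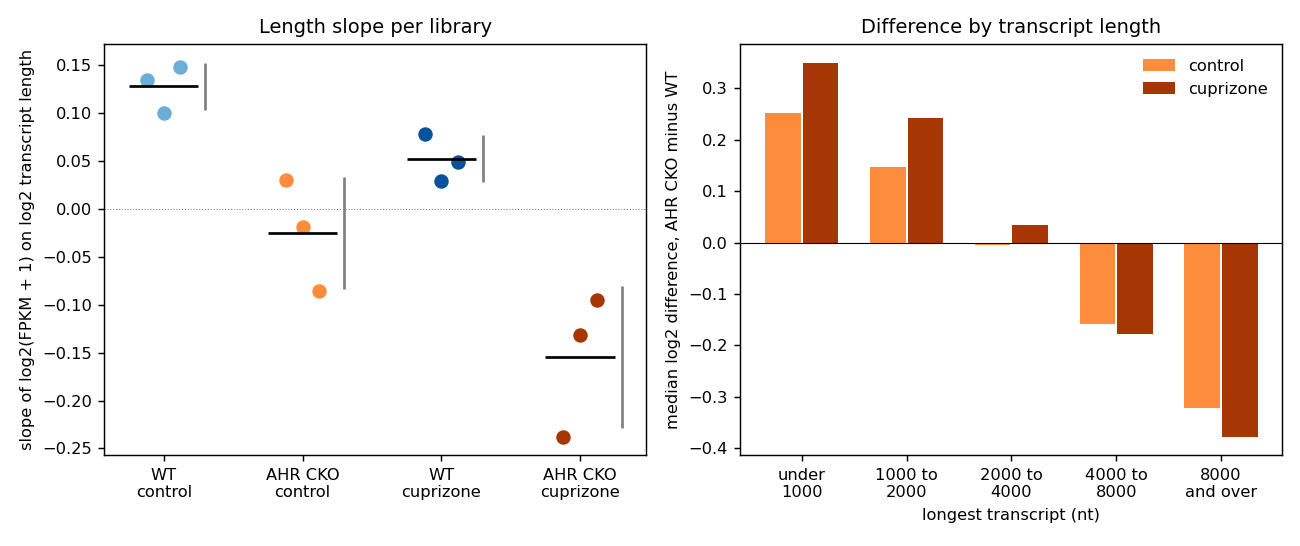
Left, slope on log2 transcript length in each library (points), with the group mean (line) and SD (grey bar) of 3 libraries. The slope is of log2(FPKM + 1) minus each gene's mean over the 12 libraries, so 0 marks that mean. Right, median log2 difference between AHR CKO and WT by length of the longest transcript (nt) in control and cuprizone tissue. The slopes of AHR CKO lie below those of WT within each treatment, and the median difference passes from above 0 in short transcripts to below 0 in long ones.

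In AHR CKO 1945 genes were called higher (14.1%) and 2563 lower (18.6%), and 36 of the higher and 41 of the lower genes differed by at least 1 on the log2 scale. After the correction 487 were called higher (3.57%) and 713 lower (5.23%). Counts over gene lists below are to be read against these shares of all tested genes. Only 16.2% of the higher calls and 23.4% of the lower calls were kept, 280 genes were called only after it, and 4 passed from a lower to a higher call. The corrected counts fell furthest without AHR CKO cuprizone replicate 1 or 2 or WT cuprizone replicate 2 or 3, to between 262 and 324 higher and between 418 and 463 lower. They rose furthest without WT control replicate 3, to 655 higher and 813 lower. The 3 libraries of AHR CKO lay above the 3 of WT in both treatments for 903 genes (6.56%) and below them for 1592 (11.6%). Control libraries alone called 127 genes (0.923%) and cuprizone libraries alone 1070 (7.78%). Of the 4508 called genes, 4505 had the same sign in both treatments, and of all tested genes 74.3% did. Genes were called on the difference averaged over both treatments, which itself favours equal signs. The share among called genes therefore does not measure agreement between the treatments. When each library was rescaled to a common total, 24.0% of the calls were higher (1141 higher and 3623 lower) in place of 43.1%, and the median log2 difference of all genes was -0.09 in place of -0.01.

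Ahr itself was not called in whole tissue, and its targets were called about as often as all genes. It lies on the minus strand of chromosome 12 at 35497974 to 35535038 (GRCm38). In control tissue Ahr stood at 2.22, 1.48 and 1.65 FPKM in WT and at 1.79, 1.41 and 2.07 in AHR CKO, and in cuprizone tissue at 1.73, 1.85 and 2.01 in WT and 1.48, 1.76 and 2.57 in AHR CKO. The groups overlapped (log2 difference 0.005 ± 0.11 SE, adjusted p = 0.98, corrected 0.23 with adjusted p = 0.183). In bulk tissue fewer cells of a type and less RNA per cell cannot be told apart, and Ahr is read from all cells, so these values do not check the deletion. Tiparp, an ADP-ribosyltransferase that feeds back on AHR, was higher in AHR CKO (0.29 ± 0.10 SE, adjusted p = 0.0347, corrected 0.49 with adjusted p = 0.0098). Its groups parted only in control tissue, where it stood at 4.93, 5.53 and 4.86 FPKM in WT and 9, 7.24 and 7.12 in AHR CKO, and the call was lost without any 1 of the 6 control libraries or WT cuprizone replicate 2 (largest adjusted p = 0.0754). Cyp1b1, a monooxygenase, differed by 0.42 (adjusted p = 0.139, corrected 0.62 with adjusted p = 0.0622). Nqo1, a quinone reductase, differed by 0.28 (adjusted p = 0.154, corrected 0.17 with adjusted p = 0.416). Ahrr did not reach the minimum level for a test. Over the list of AHR, its partners and its targets, 15 genes were tested, 2 were higher, Tiparp among them, and 3 lower (Arnt, its relative Arnt2, and Nfe2l2, the antioxidant regulator NRF2), with a median of 0.005 against -0.01 for all genes. Over all tested genes 32.8% were called. The AHR-binding motif TNGCGTG, searched on both strands of the 250 bases before each RefSeq transcription start, was in 0 of the 9 tested members with a promoter entry and in 4.76% of all genes. With 9 members, partners of AHR included, and so low a share, this cannot tell the list from other genes. Sequence further from the start was not searched. After the correction Tiparp (higher) and Nfe2l2 (-0.38, adjusted p = 0.042) were the calls that remained. The call of Arnt was lost in 4 of the fits that left out 1 library (largest adjusted p = 0.057).

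Cx3cr1 was the gene with the largest fall in AHR CKO outside the red cell genes. It lies on chromosome 9 at 119901616 to 120069879. In control tissue it stood at 24.9, 24.4 and 22.6 FPKM in WT and at 1.05, 9.6 and 0.801 in AHR CKO. In cuprizone tissue it stood at 69.4, 49.4 and 58.7 in WT and at 1.16, 22.7 and 29.6 in AHR CKO. All 6 AHR CKO libraries lay below all WT libraries of their treatment, with a wide spread among them, since 3 libraries stood near 1 FPKM and 3 between 9.6 and 29.6. The log2 difference was -2.62 ± 0.59 SE (adjusted p = 0.00622, corrected -2.52 with adjusted p = 0.0213), and it was called without any 1 library. The ratio of means was 0.159 in control and 0.301 in cuprizone tissue. Since the Cre driver is not given, its part in this difference was not tested.

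Beside Cx3cr1, most other resting genes of microglia fell by less. Of 19 resting genes tested, with Cx3cr1 counted among them, 12 were called lower and 0 higher. The median log2 difference of the 19 was -0.43 (-0.22 in control and -0.51 in cuprizone tissue). Sall1, a transcription factor of microglial identity, fell from 12.2 ± 1.35 to 8.64 ± 1.71 FPKM between WT and AHR CKO control and from 14.3 ± 1.54 to 8.72 ± 1.46 in cuprizone tissue (-0.56, adjusted p = 0.00274, corrected -0.43 with adjusted p = 0.0133). Mertk, a receptor for dying cells and myelin, fell by 0.65 on the log2 scale (adjusted p = 0.00322, corrected -0.53 with adjusted p = 0.0141). P2ry13, a purine receptor, fell by 0.45 (adjusted p = 0.00813, corrected -0.41 with adjusted p = 0.018). Other defining genes did not pass: Tmem119, a membrane protein of microglia, differed by -0.11 (adjusted p = 0.49), and Aif1, which encodes IBA1, by 0.10 (adjusted p = 0.707). After the correction 5 of the 19 were lower, Cx3cr1 again among them. The summed level of the 19 genes overlapped between the genotypes in control tissue, at 405 to 419 FPKM in WT and 377 to 427 in AHR CKO, and narrowly in cuprizone tissue, at 887 to 1353 in WT and 672 to 902 in AHR CKO. The count of 12 fell to 6 without AHR CKO control replicate 3, to 7 without AHR CKO cuprizone replicate 1 or 2, and to 4 without WT cuprizone replicate 1 or 3, and it was 11 without the 2 libraries that stood apart.

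Genes of activated microglia, of engulfment and of the lysosome showed fewer calls. Of 27 tested genes of disease-associated microglia, 1 was higher (Fabp5, a fatty acid binding protein, 0.36, adjusted p = 0.00482, corrected 0.20 with adjusted p = 0.0769) and 1 lower (Ank, a phosphate transporter, -0.24, adjusted p = 0.0155, corrected -0.23 with adjusted p = 0.0277), with a median of -0.14. Their cuprizone-induced members Cst7 (-0.74, adjusted p = 0.0518) and Itgax (-0.41, adjusted p = 0.0768) did not pass. Of 31 genes of engulfment, 7 were lower, 1 was higher and the median was -0.21. Over all tested genes 18.6% were called lower and 14.1% higher, and after the correction 5.23% and 3.57%. The engulfment and lysosomal counts before the correction lay near these shares for lower calls. Gas6, a bridging ligand that binds Mertk and dying cells, was the higher one, rising from 42.8 ± 1.12 to 58 ± 5.97 FPKM in control tissue and from 48.7 ± 5.47 to 66.6 ± 4 in cuprizone tissue (0.44, adjusted p = 0.00141, corrected 0.32 with adjusted p = 0.0216). Ligand and receptor thus changed in opposite directions. Of 34 lysosomal genes 8 were lower and 2 higher, with a median of -0.18, among them Scarb2, the receptor that carries glucocerebrosidase to the lysosome (-0.62, adjusted p = 0.00244, corrected -0.45 with adjusted p = 0.0132), and Lipa, the acid lipase that frees cholesterol (-0.41, adjusted p = 0.0102, corrected -0.35 with adjusted p = 0.032). After the correction 2 engulfment and 7 lysosomal genes were lower, the 2 becoming 1 without AHR CKO control replicate 1, AHR CKO cuprizone replicate 1 or 2, WT control replicate 2 or any 1 WT cuprizone library. The engulfment count fell to 3 or 4 without AHR CKO control replicate 3, AHR CKO cuprizone replicate 1 or 2, WT control replicate 2 or WT cuprizone replicate 1, and the lysosomal count to 4 or 5 without AHR CKO control replicate 3, AHR CKO cuprizone replicate 1 or WT cuprizone replicate 1. The 7 corrected lysosomal calls became 3 or 4 without any 1 library other than AHR CKO cuprizone replicate 3 or WT control replicate 3.

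**Figure D2:**
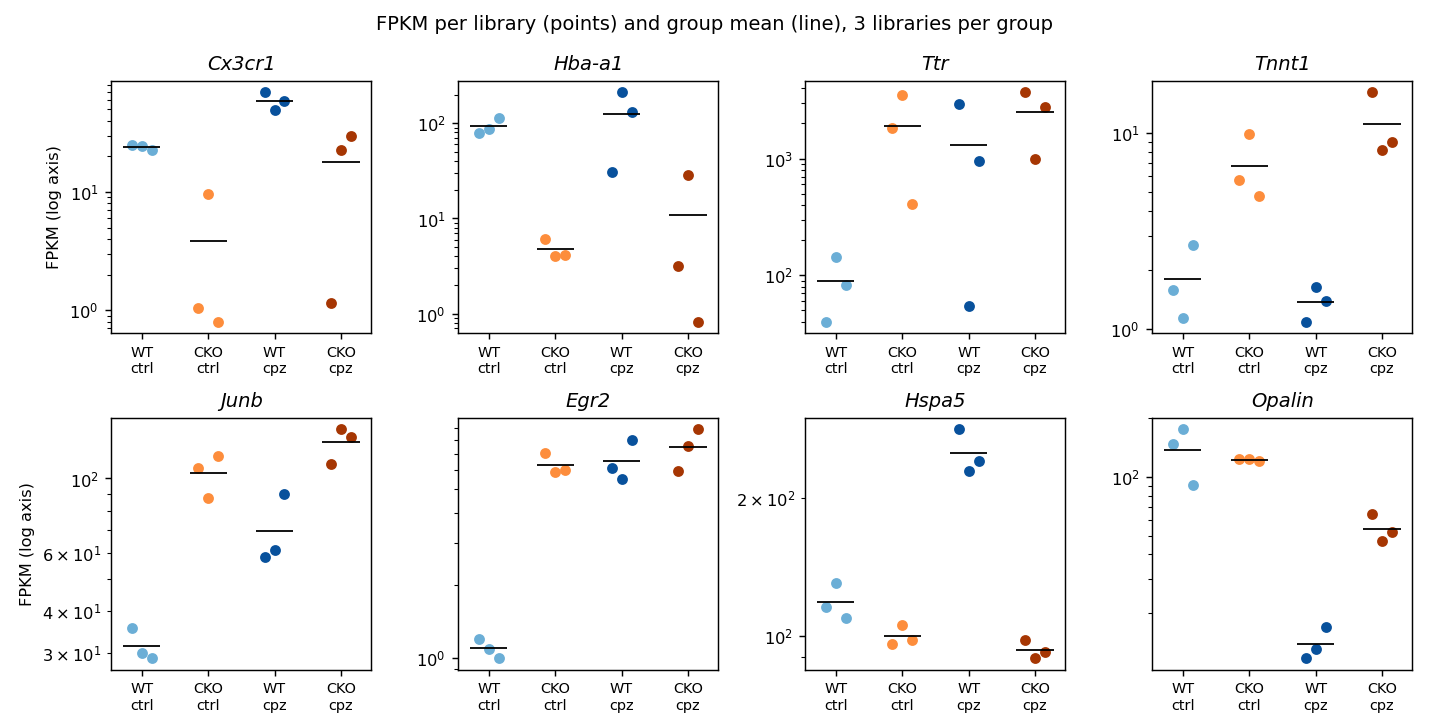
FPKM of 8 genes in each library (points, log axis) with the mean of the 3 libraries of each group (line), for WT and AHR CKO (CKO) in control (ctrl) and cuprizone (cpz) tissue. Cx3cr1 and Hba-a1 lie lower and Tnnt1 and Junb higher in AHR CKO in both treatments, Egr2 parts only in control tissue, Opalin and most of the Hspa5 difference lie in cuprizone tissue, and Ttr varies widely within groups.

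Transcripts of red blood cells were far lower in AHR CKO, and the 4 globin rows were the 4 largest falls among called genes. Hba-a1, an alpha globin gene, stood at 78.1, 86.5 and 113 FPKM in WT control and at 6.13, 3.99 and 4.15 in AHR CKO control. It stood at 30.7, 210 and 132 in WT cuprizone and at 3.15, 28.4 and 0.827 in AHR CKO cuprizone. No AHR CKO library reached the lowest WT library of its treatment, and AHR CKO cuprizone replicate 2 came closest. The log2 difference was -4.01 ± 0.58 SE (adjusted p = 0.00125, corrected -4.35 with adjusted p = 0.00266). Hba-a2 (-4.18), Hbb-b1 (-4.53) and Hbb-b2 (-3.13) were called as well, although reads of the near-identical copies within each globin pair may have been split between them, so that each copy's share is uncertain. The 4 globin rows together summed to 125 to 503 FPKM in WT libraries and to 1.25 to 54 in AHR CKO libraries. Alas2, the heme synthesis enzyme of red cell precursors, stood at 0.762 to 2.77 FPKM in WT and was listed at 0 in 5 of the 6 AHR CKO libraries. Genes of the endothelium that lines the vessels gave 1 higher and 3 lower of 20 tested, with a median of 0.01. The globin level moved with genotype beside every group described here, and its part in the other differences was not tested.

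Most of the chaperone genes of the endoplasmic reticulum tested fell in AHR CKO. These proteins fold and check secreted and membrane proteins, and the unfolded protein response turns their genes on through ATF6, XBP1 and the endoplasmic reticulum stress element (ERSE), written here as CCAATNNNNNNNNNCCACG. Searched on both strands of the 250 bases before each transcription start in RefSeq's mouse annotation (GRCm38.p6), the motif was found for 35 of 27025 genes (0.13%). It was found for 7 of the 17 list members with a promoter entry, of which Hspa5, Dnajc3, Hsp90b1, Pdia6 and Canx were called lower and Calr and Creld2 were not called. Of those 17 members 13 were called lower, so calls were not confined to members with the motif. The stretches of those 5 are shown because they hold the motif and were called lower. The motif is in capitals, with Hsp90b1 holding 2 matches. Each stretch is written 5′ to 3′ on the strand of its gene and ends at the base before the start RefSeq gives. A match describes the letters only. The positions are chr2:34771840-34772089 on the plus strand for Hspa5, chr14:118937682-118937931 on the plus strand for Dnajc3, chr10:86705445-86705694 on the minus strand for Hsp90b1, chr12:17266339-17266588 on the plus strand for Pdia6 and chr11:50325674-50325923 on the minus strand for Canx.
Hspa5: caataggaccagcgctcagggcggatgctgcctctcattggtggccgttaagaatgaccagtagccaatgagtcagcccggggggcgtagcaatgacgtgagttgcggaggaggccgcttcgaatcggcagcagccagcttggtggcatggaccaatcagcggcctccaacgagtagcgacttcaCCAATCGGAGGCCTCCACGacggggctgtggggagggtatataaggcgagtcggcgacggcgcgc
Dnajc3: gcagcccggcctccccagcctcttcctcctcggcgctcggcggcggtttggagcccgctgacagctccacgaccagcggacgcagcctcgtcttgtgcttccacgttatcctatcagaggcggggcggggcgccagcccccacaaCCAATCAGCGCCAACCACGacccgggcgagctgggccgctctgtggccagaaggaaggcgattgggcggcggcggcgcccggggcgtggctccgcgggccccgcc
Hsp90b1: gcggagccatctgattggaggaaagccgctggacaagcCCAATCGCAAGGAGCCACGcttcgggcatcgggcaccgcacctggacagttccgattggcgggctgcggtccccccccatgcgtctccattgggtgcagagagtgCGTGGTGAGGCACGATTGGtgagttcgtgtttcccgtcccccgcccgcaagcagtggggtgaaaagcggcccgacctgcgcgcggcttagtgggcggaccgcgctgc
Pdia6: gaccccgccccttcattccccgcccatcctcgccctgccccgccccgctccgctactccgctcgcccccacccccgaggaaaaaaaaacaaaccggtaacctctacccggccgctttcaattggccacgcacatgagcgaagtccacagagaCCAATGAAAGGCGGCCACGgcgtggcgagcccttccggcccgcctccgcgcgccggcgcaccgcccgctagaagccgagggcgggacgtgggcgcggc
Canx: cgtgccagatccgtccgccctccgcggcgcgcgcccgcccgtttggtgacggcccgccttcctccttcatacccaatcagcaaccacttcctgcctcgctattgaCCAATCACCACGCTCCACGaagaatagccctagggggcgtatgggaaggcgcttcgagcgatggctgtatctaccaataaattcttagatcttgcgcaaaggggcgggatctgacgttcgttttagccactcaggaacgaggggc

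Of the 20 chaperone and unfolded protein response genes tested, 16 were called lower and 0 higher, with a median log2 difference of -0.43 against -0.01 for all genes, and 10 lay below WT without overlap in both treatments. Hspa5, which encodes BiP, the main chaperone of the compartment, stood at 116, 130 and 109 FPKM in WT control and at 96.3, 106 and 98.1 in AHR CKO control. It stood at 283, 229 and 241 in WT cuprizone and at 97.9, 89.5 and 92.4 in AHR CKO cuprizone. The groups parted narrowly in control tissue and widely in cuprizone tissue, where the ratio of means was 0.372 against 0.845 in control. Averaged over both, Hspa5 fell by 0.83 ± 0.18 SE (adjusted p = 0.00501, corrected -0.73 with adjusted p = 0.0275). Dnajc3, a co-chaperone that restrains the kinase PERK, fell from 21.5 ± 1.89 to 15.3 ± 3.2 FPKM in control and from 28.5 ± 2.2 to 16.2 ± 2.82 in cuprizone tissue (-0.63, adjusted p = 0.00218, corrected -0.40 with adjusted p = 0.0176). Pdia6, a disulfide isomerase, stood at 57.1 ± 4.9 against 53.6 ± 2.42 in control tissue and 96.7 ± 11.5 against 48.9 ± 3.1 in cuprizone tissue (-0.52, adjusted p = 0.0139, corrected -0.57 with adjusted p = 0.0296). Manf, a secreted survival factor of stressed cells, stood at 21.1 ± 1.19 against 19.6 ± 2.52 and at 43.7 ± 4.99 against 21.4 ± 0.071 (-0.55, adjusted p = 0.0115, corrected -0.63 with adjusted p = 0.0227).

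Regulators and degradation factors of the response were tested with the chaperones. Xbp1, the transcription factor activated by splicing, fell by 0.46 (adjusted p = 0.00255, corrected -0.58 with adjusted p = 0.0038). Sel1l and Edem1, which take misfolded proteins out for degradation, fell by 0.42 (adjusted p = 0.00117, corrected -0.17 with adjusted p = 0.0311) and by 0.50 (adjusted p = 0.00182, corrected -0.26 with adjusted p = 0.0327). Atf6, with a long transcript of 7246 nt, fell by 0.44 (adjusted p = 0.00226), but its corrected difference was -0.13 (adjusted p = 0.198). Herpud1, a degradation factor at the same membrane, differed least (-0.03, adjusted p = 0.711). The median of the list was -0.21 in control and -0.70 in cuprizone tissue, and Hspa5 alone among its members passed the test of that difference. After the correction 12 were lower, 11 of them called before it too, and the median was -0.37. Uncorrected counts stayed at 15 to 17 with any 1 library left out and at 15 without the 2 libraries that stood apart. The corrected count fell to 3 without AHR CKO cuprizone replicate 1, to 4 without AHR CKO cuprizone replicate 2 or WT cuprizone replicate 2 or 3, and to 7 without WT cuprizone replicate 1.

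Other stress programs were counted beside the chaperones. Of 24 genes of the integrated stress response and amino acid supply, 8 were higher and 0 lower, with a median of 0.24. Among all tested genes 14.1% were called higher and 18.6% lower, and after the correction 3.57% and 5.23%. Ppp1r15a, which encodes the phosphatase subunit GADD34, rose by 0.50 (adjusted p = 0.00195, corrected 0.41 with adjusted p = 0.00858), and Ddit4, an inhibitor of mTORC1, by 0.54 (adjusted p = 0.0059, corrected 0.31 with adjusted p = 0.133). Of 16 cytosolic heat shock genes 5 were lower and 1 higher, with a median of -0.20, and 2 were lower after the correction. Hsph1, an HSP110 chaperone, fell by 0.33 (adjusted p = 0.0115, corrected -0.24 with adjusted p = 0.0986). The count of the stress response list was 5 without AHR CKO cuprizone replicate 2 or 3 or WT cuprizone replicate 3, and 2 members passed after the correction (1 without AHR CKO cuprizone replicate 2 or any 1 WT cuprizone library). The heat shock count of 5 was 3 without WT cuprizone replicate 3. Its corrected count of 2 was 4 without WT control replicate 3 and 1 without AHR CKO cuprizone replicate 1 or 2, WT cuprizone replicate 2 or 3, or WT control replicate 2.

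Several immediate early genes, which are transcribed within minutes of a stimulus, rose in AHR CKO. Of 20 tested, 10 were called higher and 0 lower, with a median log2 difference of 0.49. Junb, a subunit of the AP-1 transcription factor, stood at 35.6, 30.1 and 29 FPKM in WT control and at 108, 87.6 and 117 in AHR CKO control. It stood at 58.2, 61 and 89.7 in WT cuprizone and at 111, 140 and 133 in AHR CKO cuprizone. The genotypes did not overlap in either treatment (1.29 ± 0.16 SE, adjusted p = 0.000929, corrected 0.97 with adjusted p = 0.00758). Egr4, a zinc finger factor induced by activity, rose by 1.41 (adjusted p = 0.00104, corrected 0.996 with adjusted p = 0.00644). Fos, the partner of JUN proteins in AP-1, rose from 7.04 ± 2.71 to 23.8 ± 2.5 FPKM in control tissue and stood at 20 ± 6.38 against 31 ± 3.72 in cuprizone tissue (1.16, adjusted p = 0.00325, corrected 1.06 with adjusted p = 0.0175). Egr2, a zinc finger factor of the same family as Egr4, stood at 1.2, 1.09 and 0.999 in WT control and at 7.05, 5.89 and 6.02 in AHR CKO control, but at 6.11, 5.52 and 7.98 in WT cuprizone and 5.93, 7.55 and 8.86 in AHR CKO cuprizone. Its genotypes thus parted in control tissue and overlapped under cuprizone (0.98, adjusted p = 0.0111, corrected 0.96 with adjusted p = 0.0348). Jun itself (adjusted p = 0.978) and Egr3 (-0.07, adjusted p = 0.753) did not pass. The median of the list was 0.82 in control and 0.14 in cuprizone tissue, and 6 genes passed after the correction, with a median of 0.44. The CArG box, bound by serum response factor and searched as above, was in the promoter of 1 of 16 members with an entry (Egr2) and of 1.62% of all genes. That corrected count was 3 without WT control replicate 2 or any 1 of the AHR CKO control libraries, and the uncorrected count ran from 8 to 12.

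**Figure D3:**
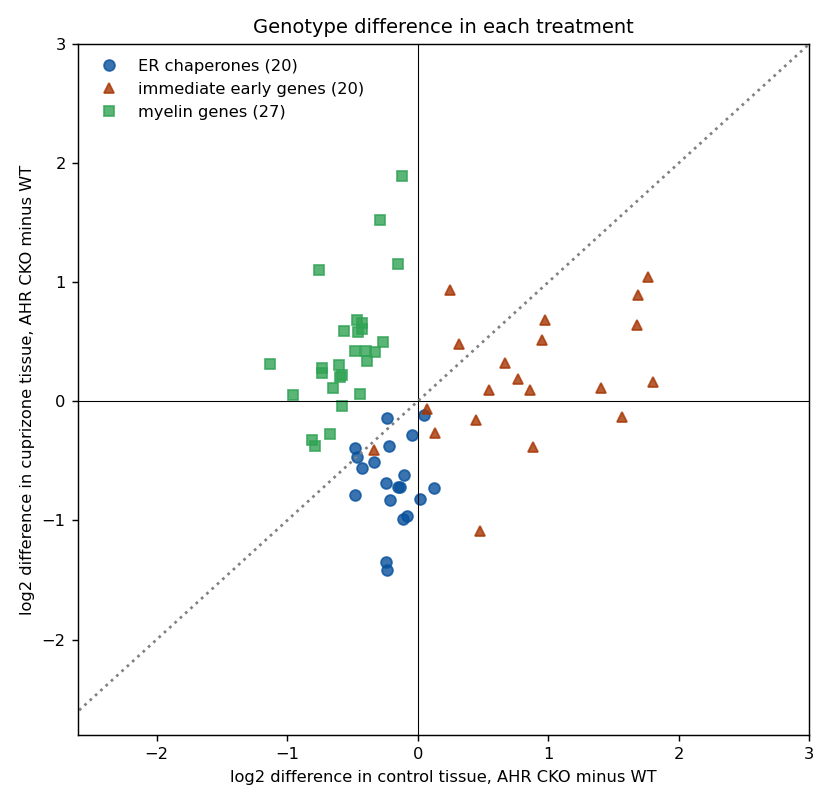
Log2 difference between AHR CKO and WT in control tissue (x axis) and in cuprizone tissue (y axis) for the tested endoplasmic reticulum (ER) chaperones, immediate early genes and myelin genes; the dotted line marks equal differences. The chaperones lie mostly below the line (medians -0.21 and -0.70), the immediate early genes mostly to the right of it (0.82 and 0.14), and the myelin genes above it (-0.56 and 0.34).

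Some genes induced by type I interferon rose in AHR CKO and most did not pass the test. Of 33 tested, 10 were called higher and 0 lower, with a median of 0.33, where 14.1% of all tested genes were higher and 18.6% lower. After the correction 3.57% of all genes were higher. Irf7, a transcription factor that amplifies the interferon response, stood at 2.32, 1.49 and 1.44 FPKM in WT control and 3.42, 5.8 and 2.18 in AHR CKO control. It stood at 11.7, 5.46 and 12.1 in WT cuprizone and 21.2, 23.5 and 27.5 in AHR CKO cuprizone. Its genotypes overlapped by 1 library in control tissue and parted in cuprizone tissue (1.02 ± 0.21 SE, adjusted p = 0.00468, corrected 0.88 with adjusted p = 0.0294). Ifi44, an interferon-induced protein, rose by 0.68 (adjusted p = 0.00949, corrected 0.81 with adjusted p = 0.00873). Ifitm3, a membrane protein that blocks viral entry, rose by 0.60 (adjusted p = 0.0102, corrected 0.34 with adjusted p = 0.194). Gbp3, an interferon-induced GTPase, rose by 0.61 (adjusted p = 0.00634, corrected 0.65 with adjusted p = 0.012). Of 16 genes of MHC class I and peptide loading 7 were higher and 0 lower, among them Tap1, the peptide transporter (0.50, adjusted p = 0.00362, corrected 0.39 with adjusted p = 0.0376). Of 6 MHC class II genes 0 passed, and Cd74, their invariant chain, stood at 102 ± 59 FPKM in WT cuprizone against 88.1 ± 37.6 in AHR CKO cuprizone. After the correction 3 interferon genes and 1 class I gene, Tap1, were higher, and Tap1 lost that call without AHR CKO control replicate 1 or 2, AHR CKO cuprizone replicate 2 or 3, WT cuprizone replicate 2 or 3, or WT control replicate 1 or 2. The interferon count was 16 without WT control replicate 1 and 6 without WT cuprizone replicate 2, and after the correction it was 7 without AHR CKO control replicate 3 and 1 without AHR CKO control replicate 2, any 1 AHR CKO cuprizone library or WT control replicate 2. The class I count was 2 without AHR CKO cuprizone replicate 2 and 4 without AHR CKO control replicate 3, AHR CKO cuprizone replicate 3, WT control replicate 3 or WT cuprizone replicate 3.

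Several fibroblast and meningeal matrix genes rose in AHR CKO. Of 17 tested, 9 were called higher and 0 lower, with a median of 0.51, and 6 were higher after the correction, 5 of them called before it too, with a median of 0.56. Col1a1, a chain of type I collagen, stood at 1.06, 1.15 and 1.08 FPKM in WT control and 2.7, 3.03 and 2.74 in AHR CKO control. It stood at 1.64, 0.918 and 1.38 in WT cuprizone and 2.59, 1.78 and 2.89 in AHR CKO cuprizone. The genotypes parted in both treatments (0.71 ± 0.11 SE, adjusted p = 0.00148, corrected 0.78 with adjusted p = 0.00385). Col1a2, the partner chain, rose by 0.62 (adjusted p = 0.00392, corrected 0.71 with adjusted p = 0.00685), and Igfbp2, which binds insulin-like growth factors, by 1.51 (adjusted p = 0.00287, corrected 1.13 with adjusted p = 0.0471). The genotypes overlapped for Igfbp2 in cuprizone tissue, at 68.8, 19.9 and 45.7 FPKM in WT and 105, 60.4 and 91.3 in AHR CKO. Slc6a13, a GABA transporter of the meninges, rose by 0.77 (adjusted p = 0.00453, corrected 0.64 with adjusted p = 0.0302). The corrected count was 3 without AHR CKO control replicate 1, AHR CKO cuprizone replicate 1, WT control replicate 1 or 2, or WT cuprizone replicate 2 or 3. Summed over the list, matrix genes stood at 633 to 912 FPKM in WT control, 916 to 969 in AHR CKO control, 304 to 370 in WT cuprizone and 506 to 1044 in AHR CKO cuprizone.

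Choroid plexus markers varied widely between libraries of a group. Ttr, which encodes transthyretin, the main secreted protein of that epithelium, stood at 40.1, 144 and 81.7 FPKM in WT control and at 1838, 3497 and 406 in AHR CKO control. It stood at 2919, 54.3 and 958 in WT cuprizone and at 3688, 993 and 2787 in AHR CKO cuprizone. The genotypes parted in control tissue and overlapped under cuprizone (3.07 ± 0.87 SE, adjusted p = 0.0185, corrected 2.92 with adjusted p = 0.0558, and adjusted p = 0.0549 without the 2 libraries that stood apart). Of 14 tested markers 5 were called higher and 0 lower, with a median of 1.06, and 0 passed after the correction. The share of all tested genes called higher was 14.1%, and 3.57% after the correction. The markers summed to 210 to 377 FPKM in WT control, 524 to 4069 in AHR CKO control, 105 to 3310 in WT cuprizone and 1116 to 3980 in AHR CKO cuprizone. The count was 12 without WT cuprizone replicate 1 and 1 to 3 without AHR CKO control replicate 1 or 2, AHR CKO cuprizone replicate 1 or 3, any 1 WT control library, or WT cuprizone replicate 2 or 3, and it was 0 without the 2 libraries that stood apart. Of 13 ependymal genes 3 were higher (6 without AHR CKO control replicate 3) and 0 lower, and 1 was higher after the correction. The 3 were Nnat, Rarres2 and Pltp, a phospholipid transfer protein (0.64, adjusted p = 0.00154, corrected 0.47 with adjusted p = 0.02). The dynein and tektin genes of motile cilia in the list were not among them. Foxj1, the master factor of motile cilia, stood at 10.7 ± 2.32 against 11.4 ± 2.71 FPKM in control tissue (0.09, adjusted p = 0.648). Border macrophages and lymphocytes were barely read, with 3 of 13 and 1 of 18 of their markers tested and 0 called. The part of choroid plexus tissue in the fibroblast and ependymal differences was not tested.

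Of the genes whose genotypes did not overlap in either treatment, Tnnt1, a slow muscle troponin subunit also made by some neurons, rose most. Tnnt1 stood at 1.58, 1.14 and 2.7 FPKM in WT control and 5.74, 9.83 and 4.77 in AHR CKO control, and at 1.09, 1.64 and 1.39 in WT cuprizone and 16.1, 8.18 and 9.02 in AHR CKO cuprizone. All AHR CKO libraries lay above all WT libraries (1.88 ± 0.22 SE, adjusted p = 0.00086, corrected 1.61 with adjusted p = 0.00266). Clec3b, the plasminogen-binding protein tetranectin, followed at 1.75 (adjusted p = 0.00179, corrected 1.39 with adjusted p = 0.0133). Next after Egr4 and Junb came Arl4d, a small GTPase (1.10, corrected 0.85), and Cyr61, a matrix signalling protein induced by serum (1.03, corrected 0.90). Spint2, an inhibitor of membrane serine proteases (1.03, corrected 0.77), Ciart, a circadian repressor (1.02, corrected 0.88), and Rab37, a GTPase of secretion (1.004, corrected 0.92), were of like size. Fmod, the matrix protein fibromodulin (0.93, corrected 0.88), Wwox, an oxidoreductase (0.89, corrected 0.91), Klf2, a zinc finger factor of endothelium (0.89, corrected 0.59), and Ramp3, a partner of the calcitonin-like receptor (0.88, corrected 0.61), completed the 13 of 15 that were still called after the correction. H1fx, a linker histone with a transcript of 1217 nt (1.06, corrected 0.44 with adjusted p = 0.0788), and Vstm2l (1.05, corrected 0.51 with adjusted p = 0.0975) were not.

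Among genes without overlap in either treatment, the other large falls named here were in genes with long transcripts, and these too kept their calls. Dok6, an adaptor of the RET receptor with a transcript of 10099 nt, stood at 15.7, 15.5 and 20.7 FPKM in WT control and 8.27, 8.31 and 4.63 in AHR CKO control, and at 18.8, 12.2 and 18.9 in WT cuprizone and 1.2, 3.49 and 3.26 in AHR CKO cuprizone. Its genotypes lay far apart in both treatments (-1.76 ± 0.25 SE, adjusted p = 0.00117, corrected -1.29 with adjusted p = 0.00551). Kcnk9, the background potassium channel TASK-3, fell by 1.53 (corrected -1.15), and Lnpep, a peptidase that travels with the glucose transporter GLUT4, by 1.49 (corrected -1.04). Igsf9b, an adhesion protein of inhibitory synapses, fell by 1.36 (corrected -1.01), and Uhmk1, a kinase of splicing factors, by 1.34 (corrected -1.01). Lmbrd2 fell by 1.31 (corrected -0.89), Hipk2, a kinase of the p53 pathway, by 1.29 (corrected -1.08), and Ppp1r12b, a regulatory subunit of myosin phosphatase, by 1.28 (corrected -1.02). Of the 15 largest falls 13 had a corrected value and all 13 kept the call, the 2 others being Hbb-b1 and Hbb-b2, which have no annotated length here. Transcripts of these 8 genes from Dok6 to Ppp1r12b ran from 7684 to 16144 nt. Below this rank most calls were not kept: of 819 genes above and 1487 below WT without overlap and called, 630 and 1037 lost the call. Among those lost were Endog (0.75, corrected 0.29 with adjusted p = 0.0658), a mitochondrial nuclease, and Kcnh7 (-0.87, corrected -0.39 with adjusted p = 0.0951), a potassium channel.

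**Figure D4:**
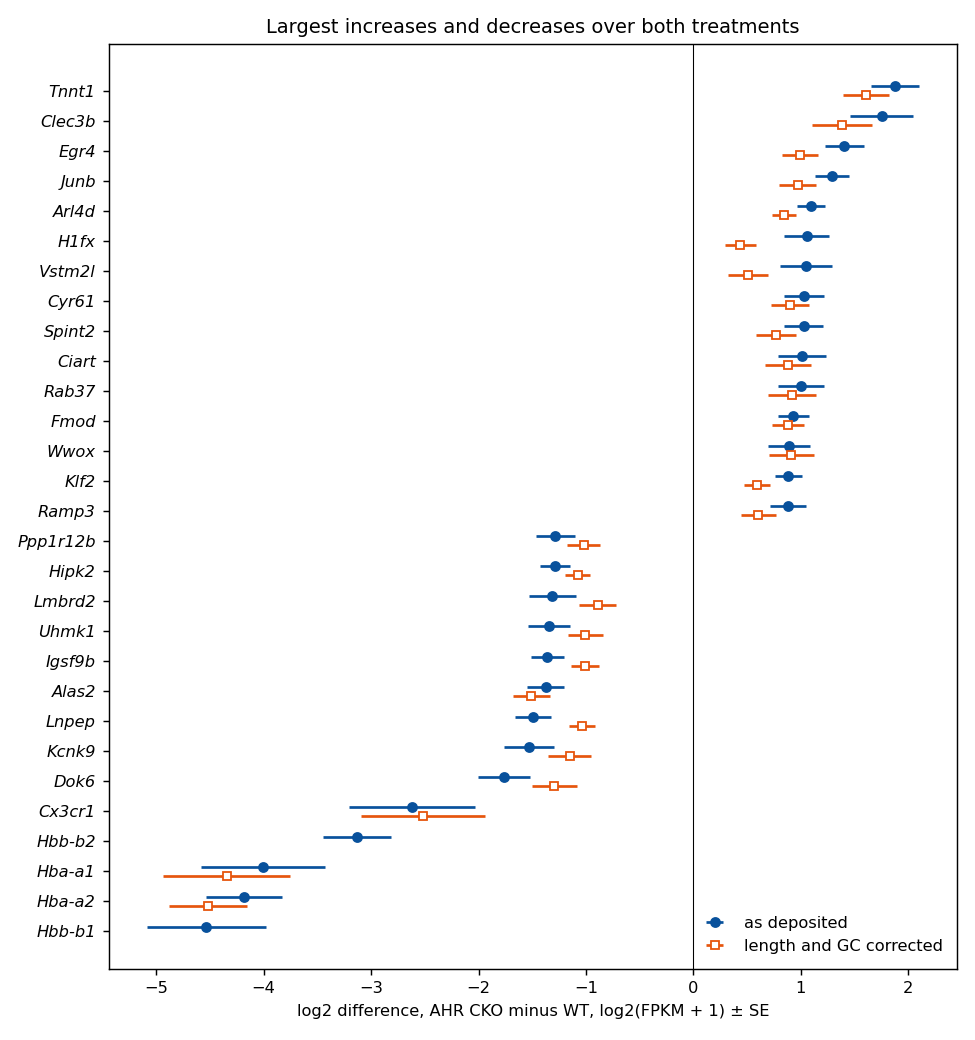
Log2 difference between AHR CKO and WT over both treatments (filled points) and after the length and GC correction (open squares), with SE, for the 15 largest increases and 14 of the 15 largest decreases among called genes whose genotypes did not overlap in either treatment. The corrected values lie nearer 0 for most genes and keep their sign, H1fx and Vstm2l losing their calls, and 2 globin rows have no corrected value.

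Myelin genes had few calls over both treatments, and their medians had opposite signs in control and cuprizone tissue. Of 27 genes of compact myelin and mature oligodendrocytes 1 was called higher and 3 lower, with a median of -0.03. The median was -0.56 in control tissue and 0.34 in cuprizone tissue. Their summed level was 16781, 21024 and 11638 FPKM in WT control and 11909, 11089 and 11226 in AHR CKO control, so WT control replicate 3 lay within the AHR CKO range. That library also had the highest sum of striatal neuron markers, 3227 FPKM against 801 and 1211 in WT control replicates 1 and 2. Of 16 striatal markers 1 was called higher, and 9 were without that library. The part of the tissue taken in these differences was not tested. Mbp stood at 8545 ± 2461 FPKM in WT control against 6301 ± 244 in AHR CKO control, and at 2293 ± 208 against 3075 ± 313 in cuprizone tissue (0.01, adjusted p = 0.966). The lower genes were Adamts4, a protease of oligodendrocytes (-0.58, adjusted p = 0.0127, corrected -0.56 with adjusted p = 0.0332), Ugt8a, which makes galactocerebroside (-0.57, adjusted p = 0.0234, corrected -0.38 with adjusted p = 0.127), and Trf, the iron carrier transferrin (-0.47, adjusted p = 0.0361, corrected -0.54 with adjusted p = 0.0491). The count of 3 was 1 without AHR CKO control replicate 3 or WT cuprizone replicate 3, and the calls of Ugt8a and Trf were lost in 3 and 8 of the 12 fits that left out 1 library (largest adjusted p = 0.0571 and 0.0802). Opalin, a membrane protein of oligodendrocytes, was the higher one (0.88, adjusted p = 0.045, corrected 0.81 with adjusted p = 0.111). Of 11 lineage factors 2 were called higher, Tcf7l2 among them, and 3 lower, and after the correction 1 was higher and 1 lower. With any 1 library left out the uncorrected counts ran from 1 to 2 higher and from 1 to 4 lower. Of the lower ones Zfp536, a zinc finger repressor, fell from 6.32 ± 1.04 to 2.22 ± 0.661 FPKM in control tissue and from 2.21 ± 0.122 to 0.966 ± 0.303 in cuprizone tissue (-0.96, adjusted p = 0.0012, corrected -0.94 with adjusted p = 0.00288). Sox10, the central factor of the lineage, did not pass (-0.01, adjusted p = 0.963). Of 24 genes of cholesterol synthesis 7 were higher and 2 lower, with a median of 0.11, and 1 was higher after the correction. For all tested genes the shares were 14.1% higher and 18.6% lower, and 3.57% and 5.23% after the correction. Mvd, a decarboxylase of the mevalonate pathway, rose by 0.45 (adjusted p = 0.00307, corrected 0.19 with adjusted p = 0.113), and the count of 7 was 4 without AHR CKO cuprizone replicate 1 or WT cuprizone replicate 1.

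Clock genes were called in both directions. Of 19 tested, 5 were higher and 4 lower, with a median of -0.05, where 14.1% of all tested genes were higher and 18.6% lower. Per1, a repressor induced by light and stress, stood at 16.1, 19.2 and 17.1 FPKM in WT control and 32, 29.4 and 30.5 in AHR CKO control. It stood at 15.6, 20.4 and 20.7 in WT cuprizone and 25.7, 29 and 25.9 in AHR CKO cuprizone. The genotypes parted in both treatments (0.64 ± 0.09 SE, adjusted p = 0.00117, corrected 0.62 with adjusted p = 0.00227). Dbp, an output factor of the clock, rose by 0.91 (adjusted p = 0.0164, corrected 0.62 with adjusted p = 0.112), and Ciart by 1.02, both chiefly in cuprizone tissue. Clock itself, with a transcript of 9744 nt, fell by 0.53 (adjusted p = 0.00125), but its corrected difference was -0.11 (adjusted p = 0.156). Per2, a repressor of the same loop as Per1, fell by 0.42 (adjusted p = 0.00985, corrected -0.29 with adjusted p = 0.0777), and Cry1, its partner, by 0.36 (adjusted p = 0.0163, corrected -0.38 with adjusted p = 0.0372). The sources used here do not state the hour at which tissue was taken, and its part in these differences was not tested.

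Subunits of several large complexes were called in larger numbers before the correction than after it. Of 72 nuclear genes of the respiratory chain, 62 were called higher and 0 lower, with a median of 0.39, and 48 lay above WT without overlap in both treatments. Their median transcript was 913 nt, and after the correction 9 were higher with a median of 0.17. Ndufb6, a subunit of complex I, rose from 75.3 ± 8.36 to 121 ± 9.88 FPKM in control tissue and from 80.8 ± 6.78 to 118 ± 20.9 in cuprizone tissue (0.60, adjusted p = 0.00134, corrected 0.39 with adjusted p = 0.0117). The corrected count of this list was 26 without AHR CKO cuprizone replicate 3. Of 67 cytosolic ribosomal protein genes, median length 906 nt, 26 were higher and 0 lower, and 0 were called after the correction, when their median was -0.002. Rplp2, an acidic protein of the large subunit, for instance, differed by 0.33 before (adjusted p = 0.0098) and 0.04 after (adjusted p = 0.68). Proteasome subunits gave 18 higher and 1 lower of 31 before and 2 higher and 1 lower after, the 2 becoming 1 without AHR CKO control replicate 3, AHR CKO cuprizone replicate 2 or WT cuprizone replicate 2 or 3. Psmd11, a lid subunit, was the lower one (-0.33, adjusted p = 0.0036, corrected -0.30 with adjusted p = 0.0098). The ribosomal count was 10 to 15 without AHR CKO control replicate 3, AHR CKO cuprizone replicate 1, WT control replicate 1 or 3, or WT cuprizone replicate 1 or 3.

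The mirror image lay in genes with long transcripts. Of 30 large chromatin regulators, median length 9108 nt, 21 were lower and 0 higher, with a median of -0.33, and after the correction 4 were lower with a median of -0.03. Ash1l, a histone methyltransferase, fell by 0.61 (adjusted p = 0.00156, corrected -0.21 with adjusted p = 0.0485), and Kmt2c, a methyltransferase of enhancers, by 0.57 (adjusted p = 0.00129, corrected -0.17 with adjusted p = 0.124). The 4 corrected calls became 1 or 2 without any 1 library other than AHR CKO cuprizone replicate 2 or WT control replicate 3. Of 28 synaptic genes of excitatory neurons 9 were lower and 1 higher, and after the correction 3 were lower (1 without WT cuprizone replicate 2 or 3) and 2 higher. Shank2, a scaffold of the postsynaptic density, fell by 0.73 (adjusted p = 0.00284, corrected -0.50 with adjusted p = 0.0195), while Gria2, an AMPA receptor subunit, fell by 0.54 (adjusted p = 0.00286) with a corrected difference of -0.06 (adjusted p = 0.602). Axonal genes divided by length as well, Tubb3, a neuronal tubulin of 1868 nt, rising by 0.56 (adjusted p = 0.0019, corrected 0.34 with adjusted p = 0.0162) and Map1a, a microtubule protein of 11825 nt, falling by 0.38 (adjusted p = 0.00273, corrected -0.11 with adjusted p = 0.237). Of 20 such genes 4 were higher and 8 lower before the correction, and 3 higher and 0 lower after it.

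**Figure D5:**
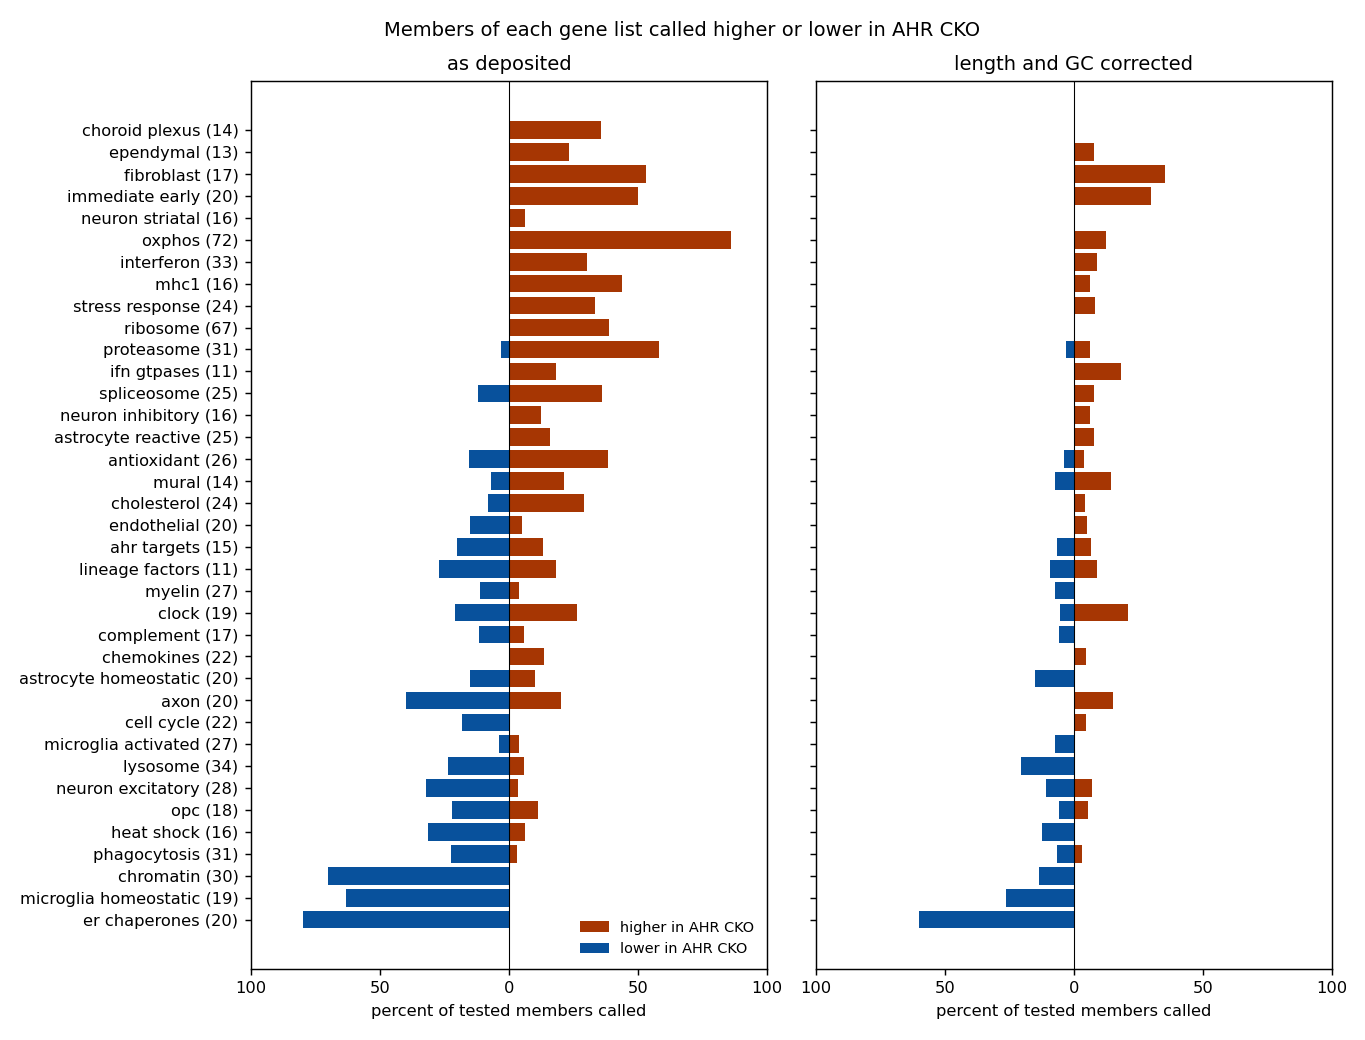
Percent of the tested members of each gene list (number tested in brackets, lists of at least 10) called higher (right of 0) or lower (left of 0) in AHR CKO, as deposited and after the length and GC correction. Respiratory chain, ribosome, proteasome and chromatin lists lose most of their calls after the correction, whereas 12 of 20 endoplasmic reticulum chaperones are called lower after it and 6 each of the fibroblast and immediate early genes higher.

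Genes beside Ahr, the gene named as deleted, and beside Cx3cr1 were counted. The sources used here name no engineered allele at Cx3cr1. Within 5 Mb of Ahr 13 of 36 tested genes were called (36.1%) and 6 after the correction (16.7%), and within 5 Mb of Cx3cr1 22 of 70 (31.4%) and 7 (10%), against 32.8% and 8.80% of all genes. Acp1, a small phosphatase on chromosome 12 at 30893326 to 30911589, stood at 21.9, 20.5 and 21.8 FPKM in WT control and 8.02, 8.29 and 7.92 in AHR CKO control. It stood at 19.5, 19.9 and 20.4 in WT cuprizone and 8.12, 7.34 and 14.8 in AHR CKO cuprizone. The genotypes did not overlap, and AHR CKO cuprizone replicate 3 lay nearest to WT (-1.14 ± 0.13 SE, adjusted p = 0.000821, corrected -1.04 with adjusted p = 0.00157). Agmo, which cleaves ether lipids, also near Ahr, fell by 0.83 (adjusted p = 0.00204, corrected -0.76 with adjusted p = 0.00644). Near Cx3cr1, beside Clec3b, Lztfl1, a regulator of ciliary traffic, fell by 0.68 (adjusted p = 0.000761, corrected -0.45 with adjusted p = 0.00208). The part of strain background in these differences was not tested.

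Few genes passed a test of whether the genotype difference itself differed between treatments. In limma 5 of 13759 genes (0.0363%) passed it, and 1316 passed at an unadjusted p under 0.05. The calls of these 5 were each lost in 7 to 10 of the 12 fits that left out 1 library (largest adjusted p = 0.123 to 0.182). Hspa5 and Hspa1b, an inducible heat shock protein with a near-identical copy in Hspa1a, were lower in AHR CKO chiefly under cuprizone, and Egr2 was higher chiefly in control tissue. For Opalin and Aspa, an oligodendrocyte enzyme that cleaves N-acetylaspartate, the difference had opposite signs in the treatments. Aspa stood at 64, 73 and 43.9 FPKM in WT control and 41.4, 34.8 and 28.3 in AHR CKO control, and at 4.65, 6.58 and 5.99 in WT cuprizone and 13, 12.8 and 14.4 in AHR CKO cuprizone, and its averaged difference was not called (0.17, adjusted p = 0.673). Hspa1b stood at 1.95, 2.45 and 2.13 FPKM in WT control and 1.71, 2.31 and 3.31 in AHR CKO control, and at 14.2, 19.9 and 10.4 in WT cuprizone and 2.63, 2.96 and 3.06 in AHR CKO cuprizone. The difference thus lay under cuprizone, and its averaged call (-0.95, adjusted p = 0.0383, corrected -1.07 with adjusted p = 0.0565) was lost without any 1 of the 6 cuprizone libraries (largest adjusted p = 0.0915). Opalin stood at 147, 175 and 90.6 in WT control and 123, 123 and 120 in AHR CKO control, and at 11.8, 13.1 and 16.9 in WT cuprizone and 64.2, 46.6 and 51.9 in AHR CKO cuprizone. Its averaged call was lost without any 1 cuprizone library or WT control replicate 3 (largest adjusted p = 0.107).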

How the data were processed

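RNA-seq of corpus callosum was read from the authors' deposited table of FPKM values, 1 column per library, per the file headers. Per the submitters' processing notes the build was GRCm38 (mm10). The aligner, counting program and pooling were not given in the sources used here. Read depth is unknown because FPKM keeps no counts, so no interval from counts is given. Libraries were grouped by title. Genes that reached an FPKM of 1 in 3 or more of the 12 libraries were fitted on log2(FPKM + 1) in limma 3.58.1 (R 4.3.3), with treatment and genotype as terms, a trend in the prior variance, 9 residual degrees of freedom and Benjamini-Hochberg adjustment over all 13759 genes. The interaction came from a fit of the 4 groups.

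For the corrected values, splines with 5 degrees of freedom on log2 longest transcript length and on GC content (GENCODE M21 basic, 13642 genes matched) were removed from each library. The script was tested on simulated data. Length slopes were compared by exact permutation within treatment. Promoter sequences came from RefSeq (GRCm38.p6). Of 943 symbols in 42 gene lists, 896 were in the table and 867 were tested. Of the table, 25 rows carried spreadsheet dates in place of symbols.

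Genes were named by rule: Ahr, Cx3cr1 and known AHR targets; the 15 largest increases and 15 largest decreases among called genes whose genotypes did not overlap in either treatment; the 5 largest each way that lost the call after correction; up to 4 members of each list by smallest adjusted p; called genes within 5 Mb of Ahr or Cx3cr1; and up to 10 called genes by interaction. Other list members, those shown as not passing, and the promoters were chosen after their values were seen. The members and lists were chosen with earlier results of these data known. Alternatives were other pseudocounts (0.1), filters (none, or a mean FPKM of at least 5), scalings, weights, a fold minimum of 1.2, the replicate block, each treatment alone and each library left out. Leaving out 2 libraries together (AHR CKO cuprizone replicate 1 and WT cuprizone replicate 2) was added after seeing the data. Some genes that the rule names are not reported here.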

Additional observations from a re-analysis of the deposited data

Results flagged for a closer look

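The genotype difference differed between control and cuprizone tissue by limma's interaction test for 5 genes. Hspa5, the chaperone BiP, was lower in AHR CKO by more under cuprizone, and the difference of differences was -1.18 (adjusted p = 0.0277). For Hspa1b, an inducible heat shock protein whose reads may be shared with Hspa1a, it was -2.08 (adjusted p = 0.0398). For Egr2, an immediate early gene, it was -1.64 (adjusted p = 0.0329), the genotypes lying apart in control tissue and overlapping under cuprizone. For the oligodendrocyte genes Aspa and Opalin it was 1.86 (adjusted p = 0.0398) and 2.01 (adjusted p = 0.0465), both standing above WT in all 3 AHR CKO cuprizone libraries. All 5 passed after the length and GC correction as well, and each call was lost in 7 to 10 of the 12 fits that left out 1 library. No explanation for these differences was tested.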

How the results depend on the processing

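The main counts were 1945 genes higher and 2563 lower. Removing the length trend alone gave 825 and 1141, and removing length and GC together gave 487 and 713. Rescaling to a common total gave 1141 higher, a fold minimum of 1.2 gave 15 and 79, control libraries alone 52 and 75, and cuprizone libraries alone 459 and 611. Leaving out 1 library gave 1367 to 1963 higher and 1931 to 2670 lower. The 5 interaction calls became 11 after the length and GC correction and 0 to 103 with 1 library left out, with 103 without WT control replicate 3 and 38 without WT cuprizone replicate 2. With the replicate block the counts were 1573 and 2142 and the interaction gave 0. Same-numbered libraries correlated at -0.343 to 0.25 over 18 pairs, so the numbers were not read as pairing. Leaving out the 2 libraries gave 1382 and 1945. The difference in length slope kept its sign and its side of the threshold under the alternatives run for it. Signs turned under the length correction for Fyco1 (0.0334), Prpf8 (0.0309), Mki67 (0.0264) and Kdm5d (0.039), and under length and GC for Etv1 (0.0397), Acaa1a (-0.0388), Fyco1 (0.00396), C1ql1 (-0.000273), Dnaja1 (0.0538), Abcg2 (0.0385), Mki67 (0.0406), Uty (0.0537) and Kdm5d (0.0858). In control libraries alone they turned for Hspa1b (0.0913), Opalin (-0.119) and Nr1d1 (-0.0283). The cause was not tested. Of 218 genes named by rule 210 were called, 89 of the 208 with a corrected value were still called after the length and GC correction, 167 were called without any 1 library, and 40 lost the call without the 2 libraries. Without counts, depth gives no limit for low genes.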

Other observations

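Genes of other brain cells gave scattered calls. Of 20 genes of resting astrocytes 2 were higher and 3 lower. Of all tested genes 14.1% were higher and 18.6% lower, and after the correction 3.57% and 5.23%. The higher ones were Id3 and Slc7a10, and 0 were higher after the correction. The lower ones were Slc1a2, the main glutamate transporter (-0.72, adjusted p = 0.0014, corrected -0.32 with adjusted p = 0.0214), Kcnj10, the potassium channel Kir4.1 (-0.41, adjusted p = 0.00198, corrected -0.24 with adjusted p = 0.0336), and Glul, glutamine synthetase (-0.30, adjusted p = 0.0141, corrected -0.30 with adjusted p = 0.03). After the correction the same 3 were lower, but 1 was without AHR CKO cuprizone replicate 1 or 2, WT control replicate 1 or 2, or any 1 WT cuprizone library. Of 14 mural cell genes 3 were higher and 1 lower, and after the correction 2 and 1. Vtn, which encodes vitronectin, rose by 0.66 (adjusted p = 0.00125, corrected 0.46 with adjusted p = 0.00755), and Rgs5, a regulator of G protein signalling in pericytes, was the lower one and fell by 0.80 (adjusted p = 0.00284, corrected -0.62 with adjusted p = 0.012). Of 16 markers of inhibitory neurons 2 were higher and 0 lower. After the correction 1 was higher, with a median of 0.02 for the list. That member, Pvalb, the calcium buffer parvalbumin of fast inhibitory neurons, rose by 0.70 (adjusted p = 0.00134, corrected 0.49 with adjusted p = 0.0088).

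Some large differences came from genes whose genotypes overlapped. Among called genes with a log2 difference of at least 1 and overlap in at least 1 treatment, Kcnj13, a potassium channel of choroid plexus, stood at 12.3, 19 and 2.37 FPKM in AHR CKO control and at 12, 0.287 and 5.94 in WT cuprizone. Aqp1, the water channel of the same epithelium, stood at 4.96, 8.86 and 1.04 and at 4.84, 0.17 and 2.11 in those libraries. Both followed the order of libraries seen for Ttr, and neither was called after the correction (adjusted p = 0.109 and 0.111). Eno1b, a near-identical copy of the enolase gene Eno1, stood at 14.9, 0.429 and 235 FPKM in AHR CKO control and at 193, 149 and 138 in AHR CKO cuprizone, while WT cuprizone replicate 2 stood at 41.4 and every other WT library at 2.24 or less. How reads were split between Eno1b and Eno1 (0.06, adjusted p = 0.508) is uncertain. These genes were chosen after their values were seen.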
